A study of Mus musculus with 4 samples.

Results

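Fibroblasts of the tumor stroma were selected from single-cell RNA-sequencing libraries of subcutaneous Lewis lung carcinoma (LLC) tumors, and 316 of 55058 kept barcodes were members. A kept barcode had at least 200 detected genes and at most 20% of its unique molecular identifiers (UMIs, counted messenger RNA molecules) on mitochondrial genes. To be a member, a barcode gave at least 1% of its UMIs to the collagen genes Col1a1, Col1a2 and Col3a1 together, and had at least 1 UMI of Dcn, Pdgfra or Pdgfrb. It had at most 1 UMI of Rhox5, a homeobox gene that the LLC cells express, no UMI of the leukocyte gene Ptprc and at most 2 UMIs of the macrophage genes C1qa, C1qb and C1qc. These 11 genes chose the members, so their levels are given as a description and were not tested.

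LLC is a mouse lung cancer cell line, and the tumors grew under the skin of female C57BL/6N mice of 6 to 8 weeks. The control group (NT) received no radiation and was read in 1 library, which held 3 pooled tumors. The radiotherapy group (RT) was read in 3 libraries called RT1, RT2 and RT3. Each held a single tumor irradiated between days 7 and 9 after injection with a total of 24 Gy in 3 fractions of 8 Gy. All tumors were collected 72 h after radiation. With 1 NT library, differences between NT tumors were not measured, and an exact permutation test of 1 library against 3 cannot give a p-value below 0.25.

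Cancer-associated fibroblasts make and remodel the collagen-rich matrix of a tumor. They are known to occur in several states, among them contractile myofibroblasts that carry smooth muscle actin (Acta2), inflammatory fibroblasts that release cytokines, chemokines and complement, and adventitial fibroblasts marked by Pi16 and Dpp4, which are regarded as a reserve population around vessels. The platelet-derived growth factor receptors Pdgfra and Pdgfrb mark fibroblasts in general, and Pdgfrb is shared with pericytes, the contractile cells that wrap small vessels.

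The members were spread very unevenly over the libraries. NT held 8 fibroblasts among 9976 kept barcodes, RT1 held 74 among 15029, RT2 held 100 among 14993 and RT3 held 134 among 15060. The share was 0.0802% in NT (95% Clopper-Pearson interval 0.0346 to 0.158), 0.492% in RT1 (0.387 to 0.618), 0.667% in RT2 (0.543 to 0.811) and 0.890% in RT3 (0.746 to 1.05). The interval of NT lay below those of all 3 RT libraries, and RT1 and RT3 did not overlap either. The intervals cover counting error only, and how dissociation recovered fibroblasts from each tumor was not measured. Relative to endothelial barcodes, the other stromal class, there were 0.296 fibroblasts per endothelial barcode in NT, 1.00 in RT1, 0.971 in RT2 and 4.79 in RT3. The endothelial barcodes behind these ratios numbered 27, 74, 103 and 28. Among barcodes with at most 1 Rhox5 UMI, which leaves out most tumor cells, fibroblasts made up 0.252% in NT, 1.05% in RT1, 1.34% in RT2 and 2.10% in RT3.

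**Figure D1:**
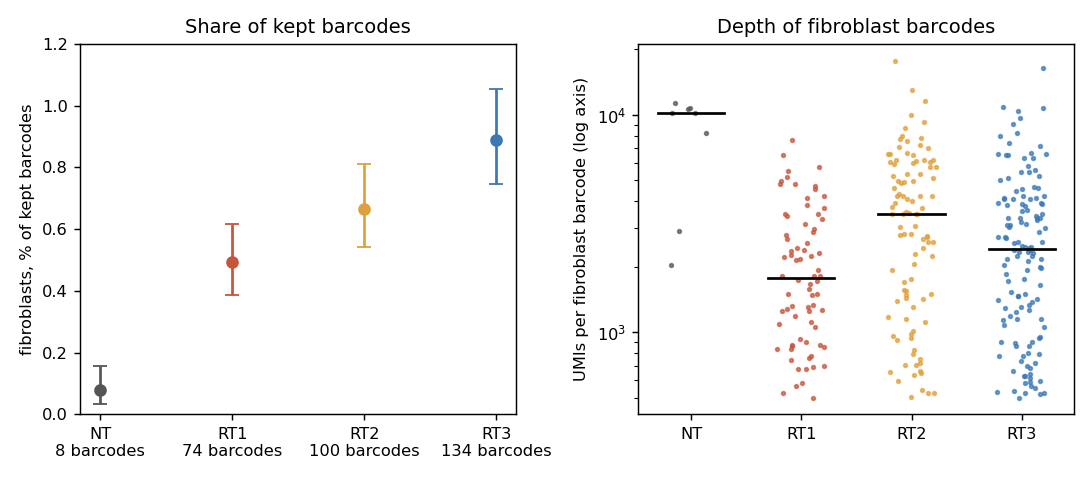
The left panel plots fibroblasts as a percentage of kept barcodes in each library, with points for the share and bars for the 95% Clopper-Pearson interval. NT lies at 0.0802% and the RT libraries between 0.492% and 0.890%. The right panel plots the UMIs of every fibroblast barcode on a log axis, with a black line at the median of each library. The NT median of 10162.5 UMIs lies above the RT medians of 1767.5, 3489 and 2414.

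The NT members were few but deep. The libraries held 69667087 UMIs in NT, 78584303 in RT1, 108699844 in RT2 and 85658695 in RT3 over all barcodes. The median fibroblast barcode had 10162.5 UMIs in NT, against 1767.5 in RT1, 3489 in RT2 and 2414 in RT3. The summed fibroblast counts were 66127 UMIs in NT, 167804 in RT1, 388385 in RT2 and 412124 in RT3. In NT, 1 member lay between 1% and 2% collagen and 18 barcodes that met every other condition lay between 0.5% and 1%, whereas RT1 had 25 just inside and 55 just outside, RT2 had 12 and 31, and RT3 had 28 and 43. Lowering the threshold to 0.5% raised NT to 26 barcodes and a share of 0.261%, with RT1 at 0.858%, RT2 at 0.874% and RT3 at 1.18%. A value of NT in what follows therefore rests on 8 barcodes, and the number of NT UMIs, and of NT barcodes that carried them, is given where it is small.

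The label was checked with genes outside the rule. Lum, which encodes the collagen-binding proteoglycan lumican, stood at 529 CPM in NT (CPM, UMIs of the gene per 1000000 UMIs of the summed fibroblast counts of a library), 781 in RT1, 592 in RT2 and 852 in RT3, beside a mean of 84.4 CPM in tumor cells and 3.17 in endothelial cells. Thy1, a surface marker of fibroblasts, stood at 1406, 697, 1112 and 1288 CPM in the same order, beside 0.970 CPM in tumor cells. Xist, which female host cells express, was present at 197, 191, 232 and 112 CPM, beside 0.877 CPM in tumor cells. The 8 endothelial markers summed to 0 CPM in NT and to at most 43.8 CPM in the RT libraries, beside 7453 CPM in endothelial cells, with Cldn5, Emcn and Tie1 at 0 in every library. The 4 hemoglobin genes were at 0 in every library. The summed counts thus carried fibroblast markers that the rule did not use and few endothelial or red cell markers.

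Markers of other cell types differed between the libraries. In NT, 2 of the 8 barcodes carried at least 3 of the 8 pericyte markers, and they held all 127 NT UMIs of the pericyte gene Rgs5 (115 and 12). The summed pericyte markers were 2450 CPM in NT, 358 in RT1, 126 in RT2 and 114 in RT3. Rhox5 was at 0 in NT and at 137, 33.5 and 41.2 CPM from RT1 to RT3, beside 1229 CPM in tumor cells, and 23 of 74 members of RT1 carried the 1 Rhox5 UMI that the rule allows. The 12 macrophage markers, led by Lyz2, summed to 30.2 CPM in NT and to 334, 317 and 223 CPM in the RT libraries, beside 40897 CPM in macrophages, with Adgre1 at 0 in all libraries. Adipocyte markers were at 143 CPM in RT1 and at 0 elsewhere, lymphocyte markers at 75.6 CPM in NT and at 0, 5.15 and 7.28 CPM in RT, and the keratinocyte gene Krtdap at 0 in NT and at 41.7, 56.6 and 12.1 CPM in RT. The parts of these other cells' RNA in the differences between NT and RT below were not tested.

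The genes of the rule showed what a member contained. Col1a1 was at 38713 CPM in NT, 15774 in RT1, 24859 in RT2 and 22093 in RT3, and Col1a2 at 37352, 13414, 18582 and 22949. Both were highest in NT, with no overlap. Col3a1, the third fibrillar collagen of the rule, was nearly level at 20188, 20363, 19743 and 21717 CPM. Together the 3 genes took 9.63% of fibroblast UMIs in NT, 4.96% in RT1, 6.32% in RT2 and 6.68% in RT3. The small proteoglycan decorin (Dcn) was at 2389 CPM in NT and at 4267, 5495 and 5253 CPM in the RT libraries. Pdgfra was at 605, 489, 227 and 364 CPM and Pdgfrb at 121, 29.8, 46.3 and 63.1 CPM, both highest in NT.

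Genes of the matrix outside the rule were abundant. In the RT libraries the most abundant of the other matrix genes was Sparc, a collagen-binding glycoprotein, at 10089, 14573 and 13972 CPM, with NT at 21837. Fibronectin (Fn1) stood at 1951 CPM in NT and 2986, 4233 and 2208 CPM from RT1 to RT3. The microfibril gene Fbn1 stood at 1905, 1049, 1444 and 1315 CPM. Lysyl oxidase (Lox), which cross-links collagen, stood at 1013, 578, 584 and 687 CPM, beside 0.221 CPM in tumor cells. Dermatopontin (Dpt), a matrix protein that assists collagen fibril formation, stood at 741 CPM in NT and at 2032, 2289 and 1786 CPM in RT.

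Some genes, named after their values were seen, differed between the RT tumors. As a list, matrix glycoproteins and proteoglycans had median log2 ratios to NT of -0.28, -0.14 and -0.0022 from RT1 to RT3 (pseudocount 15 CPM). Postn, which encodes the matricellular protein periostin, was at 2640 CPM in RT1, 461 in RT2 and 3215 in RT3, with NT at 3599. Tnc, encoding tenascin C, was at 262, 255 and 1565 CPM, with NT at 801. The collagenase gene Mmp13 had no UMI in NT, RT1 and RT2 and stood at 315 CPM in RT3, where its 130 UMIs came from 6 of 134 barcodes, beside a mean of 253 CPM in macrophages. Penk, which encodes the opioid precursor proenkephalin, went the other way, with 936 CPM in RT1, 227 in RT2, 146 in RT3 and 15.1 (1 UMI) in NT. RT2 was thus low in Postn and RT3 high in Tnc, while the Mmp13 of RT3 was carried by few barcodes.

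Secreted factors, with some of their receptors, enzymes and regulators, were compared between the classes per UMI. Of 31 genes from the lists of chemokines, inflammatory cytokines, growth factors and complement with a mean of at least 200 CPM in fibroblasts, 21 were highest in fibroblasts, 4 in endothelial cells, 3 in macrophages and 3 in tumor cells. The classes were gated by marker UMIs, and since the rule contrasts fibroblasts with the other classes these levels are given without a test. The minimum of 200 CPM was set on fibroblasts alone, so genes high in another class and low in fibroblasts could not enter, and the count of 21 is tilted toward fibroblasts. Cxcl12, the chemokine that retains Cxcr4-bearing cells, stood at 665, 578, 402 and 866 CPM in NT, RT1, RT2 and RT3, beside means of 107 CPM in endothelial cells, 0.582 in macrophages and 0.349 in tumor cells. The eosinophil attractant Ccl11 stood at 650, 828, 793 and 463 CPM and was at most 8.92 CPM in the other 3 classes. The alarmin Il33 stood at 212, 614, 484 and 570 CPM and was at most 1.91 CPM in the other 3 classes. Of the 4 classes, fibroblasts had the highest mean level of each of these genes.

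**Figure D2:**
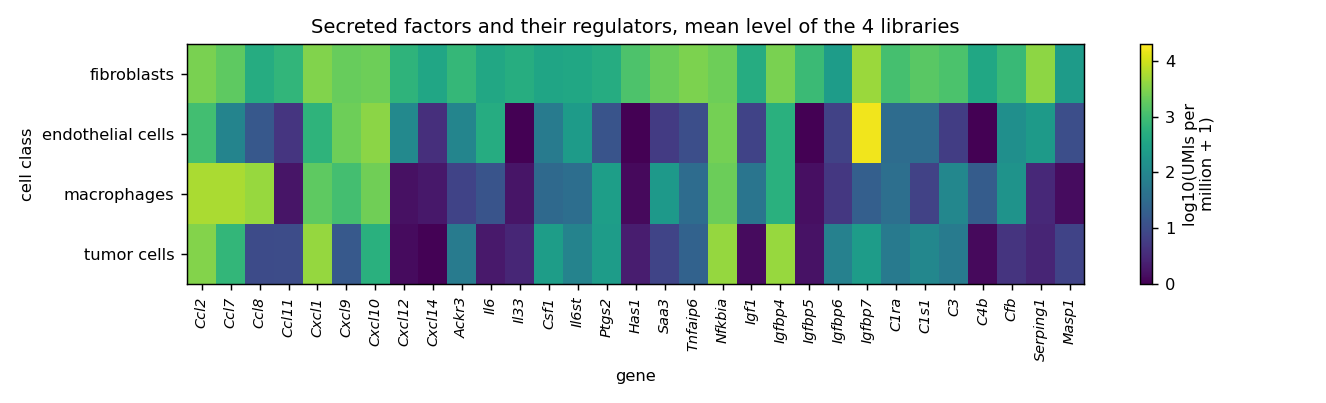
Each column is a gene of the secreted factor lists with at least 200 CPM in fibroblasts, and each row a cell class, colored by log10(CPM + 1) of the mean over the 4 libraries. Ccl11, Cxcl12, Il33, Has1 and the complement genes are bright in the fibroblast row and dark in most others, while Ccl7 and Ccl8 are brightest in macrophages.

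Other chemokines were shared with macrophages and tumor cells. Ccl2, which attracts monocytes, stood at 2646, 3659, 2050 and 2431 CPM in fibroblasts, beside means of 5607 CPM in macrophages and 3230 in tumor cells. Cxcl1, a neutrophil attractant, stood at 1951, 3313, 3412 and 3319 CPM, beside 4161 CPM in tumor cells. Ccl8, a monocyte attractant, stood at 529, 399, 250 and 653 CPM, beside 4344 CPM in macrophages, 14.4 in endothelial cells and 8.63 in tumor cells. When each barcode was thinned to 1500 UMIs, 29.3% of 41 fibroblasts in RT1 (95% interval 16.1 to 45.5), 25.0% of 72 in RT2 (15.5 to 36.6) and 36.0% of 86 in RT3 (26.0 to 47.1) had a Ccl8 UMI, against 2.33%, 1.00% and 1.67% of tumor cells. Without thinning the shares were 44.6%, 37.0% and 50.7%, and thinning left out 33, 28 and 48 shallower barcodes. Ccl8 was thus found in a part of the fibroblasts at shares above those of tumor cells in the same library, and at less than the 65.0% to 71.3% of macrophages in RT. In NT the order was the other way, with 5 of 8 fibroblasts (62.5%, 24.5 to 91.5) against 47.3% of macrophages.

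Complement and acute-phase genes were also abundant. Serping1, the inhibitor of the first complement component, stood at 1921 CPM in NT and at 3981, 5641 and 3346 CPM from RT1 to RT3. C3, the central complement component, stood at 877, 1520, 1545 and 951 CPM, and its activator gene Cfb at 272, 1204, 1213 and 607 CPM. In all 3 genes each RT library was above NT. Serum amyloid A3 (Saa3) stood at 1043, 1156, 3370 and 2594 CPM. Tnfaip6, an inflammation-induced hyaluronan-binding protein, stood at 1542, 2199, 3808 and 3768 CPM, and the hyaluronan synthase Has1 at 575, 1240, 1759 and 1461 CPM, beside at most 1.22 CPM of Has1 in the other 3 classes. Of the 10 complement genes tested, 9 were higher in each RT library than in NT and none was called, with a median log2 change of 1.05, and of 15 inflammatory genes 9 were higher in each RT library and none was called, with a median of 0.83. Among all genes tested the median was 0.10 and 38.3% were higher in each RT library.

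Irradiated fibroblasts differed in the adventitial genes Pi16 and Dpp4 and in Postn. Pi16, which encodes a secreted peptidase inhibitor, stood at 346, 927 and 517 CPM from RT1 to RT3 and at 30.2 CPM (2 UMIs) in NT. Dpp4, a cell surface peptidase, stood at 203, 337 and 148 CPM, with NT at 75.6 (5 UMIs). At 1500 UMIs, Pi16 or Dpp4 was detected in 36.6% of 41 barcodes of RT1 (95% interval 22.1 to 53.1), 65.3% of 72 of RT2 (53.1 to 76.1) and 41.9% of 86 of RT3 (31.3 to 52.99). In 300 tumor cells per library neither gene was detected, and likewise in the endothelial cells. Unthinned, the shares were 32.4%, 67.0% and 47.0%. In NT either gene was detected in 2 of 8 thinned barcodes (25.0%, 3.19 to 65.1) and in 3 of 8 unthinned (37.5%), so by detection NT could not be set apart from the RT libraries. Postn was detected in 34.1%, 37.5% and 61.6% of the thinned barcodes from RT1 to RT3, and Cd34, which adventitial fibroblasts share with endothelial cells, in 58.5%, 81.9% and 73.3%. In NT, Postn was detected in 7 of 8 thinned barcodes (87.5%, 47.3 to 99.7) and Cd34 in 3 of 8 (37.5%, 8.52 to 75.5).

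To see which genes went with Pi16 and Dpp4, thinned RT barcodes with either gene were set beside those with neither, within each library. This is a description, since the barcodes of a library are not replicates and detection of a gene in a barcode is partly chance. Of 1528 genes with enough UMIs, 19.6% were higher and 18.6% lower in all 3 libraries in the barcodes with Pi16 or Dpp4. The genes named were chosen after their values were seen, most of them among those with the largest ratio in the library where it was smallest, and the inflammatory genes as members of the lists described above.

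Gfpt2, which feeds the hexosamine pathway of glycan synthesis, stood at 1378, 1617 and 981 CPM in barcodes of RT1, RT2 and RT3 with Pi16 or Dpp4 and at 231, 453 and 187 CPM in those with neither. Scara5, a ferritin receptor, stood at 1200, 582 and 778 CPM against 128, 133 and 253. Efemp1, a fibulin of elastic matrix, stood at 1467, 1348 and 1204 CPM against 256, 480 and 493. In every one of these pairs the barcodes with Pi16 or Dpp4 were higher, and the fibril-associated collagen Col14a1 (1689, 2043 and 1500 CPM against 487, 507 and 627) went with them. So did Lbp, which encodes the lipopolysaccharide binding protein, at 1289, 1206 and 944 CPM against 128, 320 and 387. Tnxb, Thbd, Pamr1, Cd248, Pcolce2 and Ogn showed the same direction in each library.

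The barcodes with neither gene carried more of several matrix genes, and also of genes abundant in other classes. Tnc stood at 513, 613 and 1933 CPM in barcodes of RT1, RT2 and RT3 with neither gene and at 0, 14.2 and 556 CPM in those with Pi16 or Dpp4. Mgp, a matrix protein that binds calcium, stood at 667, 2027 and 2400 CPM against 178, 128 and 500. Postn stood at 3410, 1040 and 3413 CPM against 933, 270 and 1481, and Col12a1 at 205, 587 and 987 CPM against 0, 28.4 and 315. The neutrophil attractant Cxcl5 stood at 154, 133 and 373 CPM against 0, 0 and 18.5. Spp1, a phosphoprotein with a mean of 3126 CPM in tumor cells, stood at 2051, 267 and 360 CPM against 133, 28.4 and 74.1, and Cav1, the caveolae protein with 1383 CPM in endothelial cells, at 641, 107 and 480 CPM against 88.9, 42.6 and 92.6. The part of other cells' RNA in this split was not tested. Inflammatory genes did not follow a single direction in this split. C3 was higher with Pi16 or Dpp4 (2489, 1858 and 2130 CPM against 949, 1120 and 640), and so were Il6 and Has1, while Cxcl9 was higher in RT1 and lower in RT2 and RT3.

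A split by Postn showed the reverse for part of these genes. Crabp1, which binds retinoic acid in the cytoplasm, stood at 1238, 568 and 1082 CPM in Postn-positive barcodes of RT1, RT2 and RT3 and at 123, 29.6 and 20.2 CPM in Postn-negative ones. The growth factor Igf1 stood at 667, 716 and 969 CPM against 173, 178 and 263, and Col6a1 at 1905, 1679 and 2579 CPM against 716, 756 and 1010. Gsn, which encodes the actin-severing protein gelsolin, was lower with Postn, at 1048, 1481 and 1811 CPM against 3111, 3156 and 3616. In a split by Ccl8, the T cell attractant Cxcl9 stood at 1889, 3259 and 2903 CPM in Ccl8-positive barcodes against 598, 728 and 1139 CPM in negative ones, and stromelysin (Mmp3) at 1111, 1407 and 1892 CPM against 529, 815 and 376. Of the 1528 genes, 14.5% were higher and 19.9% lower in all 3 libraries in the split by Postn, and 11.4% and 18.2% in the split by Ccl8. The genes named for these splits were also chosen after their values were seen, so they stand for themselves only. Other cells' RNA in Ccl8-positive barcodes was not tested.

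Few fibroblasts carried transcripts of dividing cells. The 10 cycling markers summed to 197, 209, 144 and 184 CPM in NT, RT1, RT2 and RT3, beside a mean of 1757 CPM in tumor cells. At 1500 UMIs, Mki67 or Top2a was detected in 1 of 8 barcodes of NT and in 2.44%, 5.56% and 2.33% of the barcodes from RT1 to RT3, against 37.3%, 35.3%, 21.0% and 29.7% of tumor cells and 15%, 5%, 4.33% and 5.33% of macrophages. In endothelial cells the RT shares were 12.2%, 11.1% and 8.70%, so the shares in irradiated fibroblasts were lower in value than in tumor and endothelial cells and near those of macrophages, without a test. Unthinned they were 9.46%, 9.00% and 8.21%.

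The comparison of RT with NT asked which fibroblast genes differed 72 h after radiation. Summed counts per library were fitted with edgeR's quasi-likelihood test over the 4223 genes with a mean of at least 30 CPM and at least 30 UMIs, with Benjamini-Hochberg adjustment. The fit called 27 genes at an adjusted p under 0.05, which is 0.639% of those tested, of which 17 were higher in RT (0.403%) and 10 lower (0.237%). At an unadjusted p under 0.05 there were 656 (15.5%), 391 higher (9.26%) and 265 lower (6.28%). The number of calls changed with the libraries and the gate. Without RT1 the fit called 0 genes (482 at an unadjusted p under 0.05), without RT2 16 and without RT3 23, and with the collagen threshold at 0.5%, which brings NT to 26 barcodes, it called 1, the contractile gene Acta2. The sizes of the changes moved little without RT1, with a log2 change of 3.60 for Gsn (3.58 with all libraries), 4.48 for Cdkn1a (4.44) and -5.96 for Acta2 (-5.84). AA467197, called lower, had 37 NT UMIs in 2 barcodes, and its log2 change went from -3.23 to 1.67 without the deepest NT barcode. It was 1.54 without the 8% of barcodes with the most UMIs in each library, so its direction depended on the deepest barcodes. In summed counts, a change in which fibroblast states a tumor held and a change within each cell cannot be told apart.

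Gsn stood at 181 CPM in NT (12 UMIs in 4 barcodes) and at 2020, 2346 and 2130 CPM from RT1 to RT3, a log2 change of 3.58 and a ratio of 12.1 (95% counting interval 6.92 to 23.5, edgeR adjusted p = 0.0067). The RT libraries lay close together and far above NT. The intervals of this ratio and of those below cover counting error only, not the spread between barcodes or tumors. Serpina3n, a secreted inhibitor of serine proteases, stood at 393 CPM in NT (26 UMIs in 6 barcodes) and at 2122, 2217 and 2608 CPM in RT, a log2 change of 2.56 (edgeR adjusted p = 0.021). Mmp2, a gelatinase that cleaves collagen, stood at 786 CPM in NT (52 UMIs in 6 barcodes) and at 2974, 3857 and 4220 CPM in RT, a ratio of 4.91 (3.73 to 6.58, edgeR adjusted p = 0.033). For both genes every RT library was above NT. The call of Mmp2, and that of Hes1 below, was lost when any 1 RT library was left out and at 0.5% collagen. Both were also lost without the deepest NT barcode and without the 8% of barcodes with the most UMIs. In these alternatives the log2 change lay between 2.05 and 2.72 for Mmp2 and between 2.10 and 2.72 for Hes1. Hes1, a transcriptional repressor downstream of Notch, stood at 136 CPM in NT (9 UMIs in 5 barcodes) and at 864, 1012 and 721 CPM in RT, a ratio of 6.34 (3.32 to 13.9, edgeR adjusted p = 0.042).

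Several called genes were at or near 0 in NT. Scara5 had no UMI in NT and stood at 447, 463 and 349 CPM in RT, at least 9.08-fold higher when NT is set at the limit of 3 UMIs in its library (45.4 CPM). Pcolce2, an enhancer of procollagen processing, had none in NT and stood at 203, 178 and 216 CPM, at least 4.37-fold higher. Dnajb9, a co-chaperone of the endoplasmic reticulum, had none in NT and stood at 256, 216 and 192 CPM, at least 4.69-fold higher. None of the 3 was called by DESeq2 (adjusted p = 0.067 for Scara5, 0.24 for Pcolce2 and 0.21 for Dnajb9) or with the 26 NT barcodes at 0.5% collagen (edgeR adjusted p = 0.16 for Scara5 and Pcolce2 and 0.46 for Dnajb9). At 0.5% collagen the log2 change was 1.01 for Dnajb9, below its limit from the 8 NT barcodes, and 3.36 for Scara5. The edgeR adjusted p was 0.020 for Scara5 and 0.033 for the other two. Scara5 and Pcolce2 were low in tumor cells (24.9 and 28.8 CPM), whereas Dnajb9 was found in all classes, at 189 CPM in tumor cells and 175 in endothelial cells.

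Other called genes had 2 to 4 UMIs in NT, and their ratios are correspondingly wide. Lbp stood at 30.2 CPM in NT (2 UMIs in 1 barcode) and at 536, 837 and 558 CPM in RT, a ratio of 22.02 (6.07 to 182). Sfrp4, a secreted Wnt antagonist, had 2 UMIs in NT and stood at 661, 471 and 349 CPM in RT, a ratio of 14.96 (4.12 to 124). Prg4, which encodes the lubricant proteoglycan 4, had 3 UMIs in NT and stood at 721, 708 and 541 CPM, a ratio of 14.1 (4.80 to 68.5). In all 3 genes the NT UMIs came from 1 barcode. Xdh, a purine-degrading oxidoreductase, had 2 UMIs and reached 375, 404 and 342 CPM, a ratio of 12.3 (3.39 to 102). The adhesion gene Chl1 had 4 UMIs and reached 518, 427 and 696 CPM, a ratio of 9.22 (3.58 to 34.0), and the aggrecanase Adamts5 had 4 UMIs and reached 423, 633 and 529 CPM, a ratio of 9.13 (3.55 to 33.6). Their edgeR adjusted p-values lay between 0.021 for Prg4 and 0.048 for Adamts5. DESeq2 did not call Sfrp4, Xdh, Chl1 or Adamts5, with log2 changes of 3.99, 3.60, 3.15 and 3.11.

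Contractile genes were among the largest falls. Acta2 stood at 1467 CPM in NT (97 UMIs in 5 barcodes) and at 29.8, 15.4 and 31.5 CPM in RT, a log2 change of -5.84 (edgeR adjusted p = 8.7e-05). Without the NT and RT barcodes that carried at least 2 of the pericyte markers the log2 change was -4.34 (edgeR adjusted p = 0.013), and without RT1 it was -5.96 (edgeR adjusted p = 0.289). Of the 97 NT UMIs of Acta2, the 2 pericyte-marker barcodes held 57 and 18 and a single other barcode held 20, so the lower level outside the pericyte-marker barcodes rests on 1 NT barcode. Tagln, which encodes the actin-binding protein transgelin, stood at 423 CPM in NT (28 UMIs in 4 barcodes) and at 23.8, 0 and 2.43 CPM in RT (edgeR adjusted p = 0.025), and it lay under the filter once the pericyte-marker barcodes were left out. DESeq2 did not call Tagln (adjusted p = 0.69), nor did edgeR without RT3 (adjusted p = 0.059) or at 0.5% collagen (adjusted p = 0.11). The small GTPase gene Rasl11a stood at 771 CPM in NT (51 UMIs in 3 barcodes) and at 17.9, 36.0 and 24.3 CPM, a log2 change of -4.78 (edgeR adjusted p = 0.00081). Gm4841, also called lower, stood at 242 CPM in NT (16 UMIs in 3 barcodes) and at 23.8, 23.2 and 24.3 CPM in RT. Its log2 change was -3.31, and -2.45 without a call at 0.5% collagen. At 1500 UMIs, Acta2 or Tagln was detected in 3 of 8 NT barcodes and in 2.44%, 1.39% and 3.49% of the barcodes from RT1 to RT3. Unthinned, either gene was detected in 6 of 8 NT barcodes and in 5.41%, 2.00% and 5.97% of the RT barcodes. The 3 NT barcodes richest in Acta2 include the 2 with pericyte markers, so these shares do not count myofibroblasts alone.

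**Figure D3:**
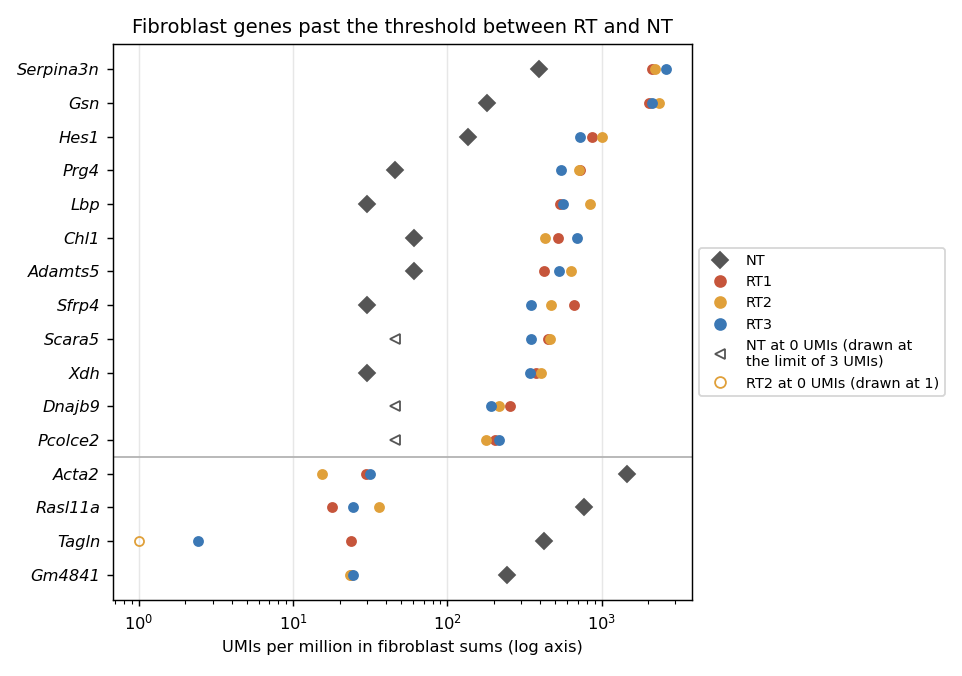
Each row is a fibroblast gene that passed the edgeR threshold between RT and NT, at its level in each library (CPM, log axis). Diamonds mark NT, circles the RT libraries, and open symbols libraries with no UMI. In rows such as Gsn, Serpina3n and Scara5 the RT circles cluster to the right of NT, and in the rows of Acta2, Tagln and Rasl11a they lie to its left.

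Of 14 contractile genes, 9 were tested, and 3 fell (Acta2, Tagln and Actn1), none rose, and 8 were lower in every RT library than in NT, where 32.7% of all genes tested were. Over all genes tested, 0.237% were called lower. The median log2 change of the contractile list was -1.18, beside 0.10 over all genes tested. Actn1, an actin cross-linker, stood at 832 CPM in NT and at 173, 139 and 206 CPM in RT (edgeR adjusted p = 0.021). The actin regulators Cald1 (620, 310, 242 and 272 CPM) and Tpm1 (393, 215, 144 and 211 CPM) were lower in each RT library and were not called. Ccn2, a matricellular target of transforming growth factor beta and of mechanical tension, stood at 771 CPM in NT and at 244, 191 and 184 CPM in RT, a log2 change of -1.91 (edgeR adjusted p = 0.036). It was the 1 gene called among 12 tested of the transforming growth factor beta list, whose median was 0.66. The call of Ccn2 was lost with DESeq2, at 0.5% and 2% collagen, and when any 1 RT library was left out. Its log2 change lay between -2.06 and -1.48 in these alternatives. The pericyte markers, 2450 CPM in NT against 114 to 358 CPM in RT, moved with the contractile list, and Rgs5 itself stood at 1921, 143, 0 and 0 CPM. The 4 smooth muscle markers also did, at 75.6 CPM in NT (5 UMIs) and at 5.96, 2.57 and 0 CPM in RT, with Cnn1 at 0 in every library. The part of these markers in the contractile list was not tested.

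Most collagens were lower in RT and none was called. Of 11 tested collagens outside the fibrillar list 8 were lower in every RT library and 1 higher, with a median log2 change of -0.96. Among all genes tested 32.7% were lower and 38.3% higher in every RT library, with a median of 0.10. Col6a1 stood at 3433 CPM in NT and at 1150, 1159 and 2004 CPM in RT, and Col15a1, a basement membrane collagen, at 1225, 393, 95.3 and 158 CPM. Col8a1, of vessel-associated matrix, stood at 484 CPM in NT (32 UMIs in 7 barcodes) and at 11.9, 20.6 and 72.8 CPM (edgeR adjusted p = 0.086). The exception was Col14a1, at 681 CPM in NT and 1055, 1583 and 937 CPM in RT. The collagen chaperone Serpinh1 stood at 2495 CPM in NT and 667, 1002 and 963 CPM in RT, and none of the 18 collagen processing genes tested was called. The members were chosen by 3 collagens and the NT sum had the higher share of them, and the part of the rule in these levels was not tested.

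Genes of resting adventitial fibroblasts were higher in RT in most cases. All 14 of this list were tested, 11 were higher in every RT library and 1 lower, and the median log2 change was 1.68, or 1.54 with the genes at 0 in NT set at their limit. Among all genes tested 38.3% were higher and 32.7% lower in every RT library, with a median of 0.10. Scara5 was the gene of the list that passed the test, beside 0.403% called higher over all genes tested. Ly6c1 stood at 1240 CPM in NT and at 3671, 4967 and 3628 CPM in RT (edgeR adjusted p = 0.065). Ly6a, known as Sca-1, stood at 2631, 6698, 8942 and 5853 CPM, and Cd34 at 1074, 1841, 1836 and 1754 CPM. In all 3 genes NT was below every RT library and none was called. Pi16 had a ratio of 21.5 (5.94 to 178) on 2 NT UMIs and Gfpt2 of 54.6 (9.77 to 2158) on 1, both with an edgeR adjusted p of 0.13. Since the list was chosen with results of these libraries known, its direction is not independent evidence.

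Of 35 targets of p53, the transcription factor that responds to DNA damage, 15 were tested, of which 11 were higher in every RT library and 3 lower, with a median log2 change of 2.21, or 1.29 with the genes at 0 in NT at their limit. Their median count in NT was 3 UMIs, and a gene that low in NT passed the filter only through its RT level, so the count and the median are tilted upward and support no direction for the list. Among all genes tested 38.3% were higher and 32.7% lower in every RT library, and 0.403% were called higher. Of the 15 p53 targets, 1 passed the test. Cdkn1a, which encodes the cell cycle inhibitor p21, stood at 30.2 CPM in NT (2 UMIs in 2 barcodes) and at 590, 801 and 585 CPM in RT, a ratio of 22.2 (6.13 to 184, edgeR adjusted p = 0.021). At 1500 UMIs it was detected in 1 of 8 NT barcodes and in 34.1%, 66.7% and 46.5% of the barcodes from RT1 to RT3, against 3.33% to 6.00% of tumor cells. Mdm2, the ubiquitin ligase that restrains p53, stood at 15.1 CPM in NT (1 UMI) and at 119, 152 and 182 CPM in RT, and the small zinc finger gene Zmat3 at 15.1 (1 UMI), 77.5, 77.2 and 82.5 CPM. Btg2, an antiproliferative gene, stood at 242, 739, 590 and 459 CPM, and Ccng1 at 45.4, 131, 129 and 129 CPM. These 4 were higher in every RT library and were not called.

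The rise of Cdkn1a was not restricted to fibroblasts. It stood at 103, 853, 1362 and 645 CPM in endothelial cells (edgeR adjusted p = 0.00031) and at 312, 1348, 1965 and 1290 CPM in macrophages (edgeR adjusted p = 0.025). In tumor cells it stood at 19.1, 42.0, 35.2 and 33.6 CPM.

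**Figure D4:**
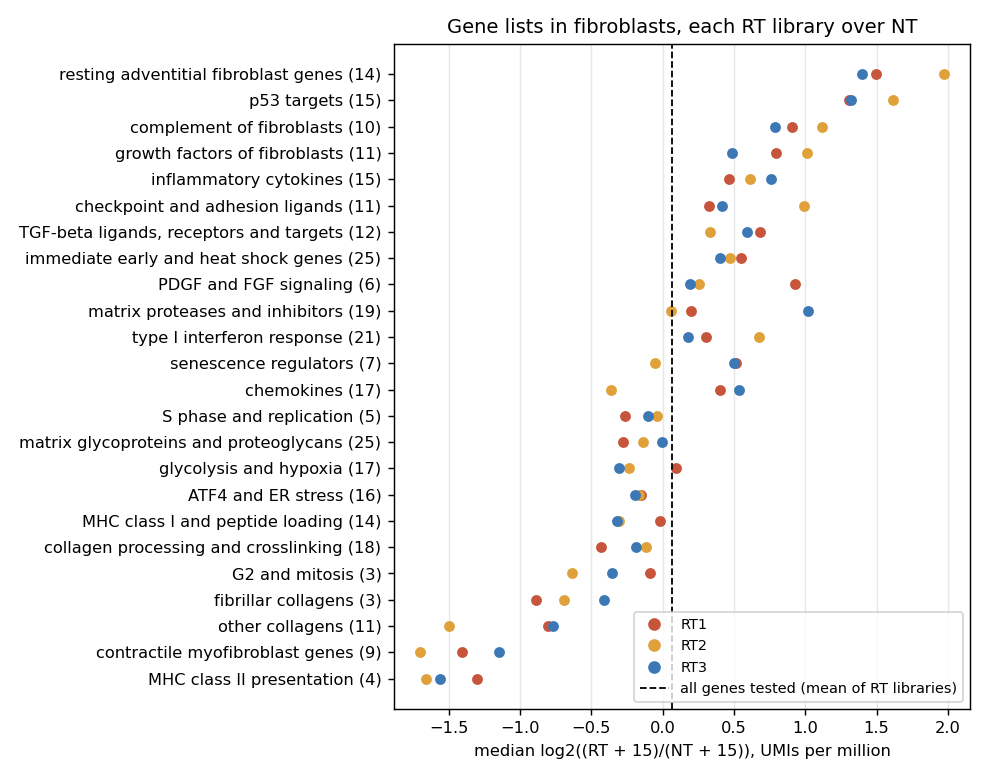
Each row is a gene list with its number of genes tested, and each point the median over the list of the log2 ratio of 1 RT library to NT (pseudocount 15 CPM), with a dashed line at the mean of the medians over all genes tested. Adventitial genes (1.5, 1.97 and 1.39) and p53 targets (1.31, 1.61 and 1.32) lie to the right, and class II genes (-1.31, -1.66 and -1.56) and contractile genes (-1.41, -1.70 and -1.15) to the left.

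Genes of class II antigen presentation were mostly lower in RT. Of 8 genes 4 were tested, of which H2-Eb1, a class II chain, fell from 302 CPM in NT (20 UMIs in 4 barcodes) to 35.8, 59.2 and 38.8 CPM in RT, a log2 change of -2.69 (edgeR adjusted p = 0.040). H2-Aa stood at 333, 89.4, 66.9 and 99.5 CPM and H2-Ab1 at 439, 232, 178 and 143 CPM, both lower in every RT library and not called. The fourth gene tested, the lysosomal protease gene Ctss, had no UMI in NT and stood at 53.6, 36.0 and 65.5 CPM in RT (edgeR adjusted p = 0.25), beside 7661 CPM in macrophages. The list's median was -1.61, beside 0.10 over all genes tested in fibroblasts, of which 0.237% were called lower. The call of H2-Eb1 was lost without the deepest NT barcode (log2 change -1.82, edgeR adjusted p = 0.23). In macrophages H2-Eb1 was more abundant and also fell, from 4179 CPM in NT to 521, 1042 and 898 CPM in RT (log2 change -2.34, edgeR adjusted p = 0.024), and the class II list had 3 of 6 tested genes called lower there, with a median of -2.08, beside 3.06% called over all genes tested in macrophages. Class I genes were close to the background, with 0 of 14 tested genes called and a median of -0.11, and B2m, the light chain of class I, stood at 8983, 8415, 6887 and 7563 CPM. In fibroblasts, Cxcl9 stood at 4053 CPM in NT and at 1013, 1450 and 1541 CPM in RT (edgeR adjusted p = 0.061), and of 21 interferon response genes tested 11 were higher in every RT library, 3 lower and none called, with a median of 0.51, beside 38.3% higher and 32.7% lower in every RT library over all genes tested.

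The remaining lists held few calls or none. Over all genes tested, 0.403% were called higher and 0.237% lower, with a median log2 change of 0.10. Matrix proteases and their inhibitors had 2 of 19 called higher (Mmp2 and Adamts5, the latter not with DESeq2) and a median of 0.68. Within this list, Mmp3 stood at 257 CPM in NT and at 924, 757 and 883 CPM in RT, and Timp3, an inhibitor of metalloproteases, at 1391, 238, 633 and 277 CPM, without calls. Of 17 chemokines none was called (median 0.17), and of 25 matrix glycoproteins none (median 0.09). Growth factors of fibroblasts had 0 of 11 called and a median of 0.95, with Igf1 at 227, 405, 474 and 762 CPM. Immediate early genes had 0 of 25 called and a median of 0.51, glycolysis 0 of 17 (-0.29), and platelet-derived and fibroblast growth factor signaling 0 of 6 (0.69). The S phase list had 5 of 28 genes tested and the mitosis list 3 of 27, since most lay under the filter. ATF4 and endoplasmic reticulum stress had 1 of 16 called (Dnajb9, median -0.11), senescence regulators 1 higher and 1 lower of 7 (Cdkn1a and Ccnd1, median 0.22), and checkpoint and adhesion ligands 0 of 11 (median 0.81, or 0.13 with genes at 0 in NT at their limit). Ccnd1, the G1 cyclin D1, is named after its values were seen. It had 19 NT UMIs in 2 barcodes, and without the pericyte-marker barcodes its log2 change went from -2.42 to -0.14 (edgeR adjusted p = 0.99).

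Some calls moved in other classes as well. The ribosomal gene Rps27 (454, 1984, 2243 and 1888 CPM) and the ferritin gene Fth1 (907, 4642, 3865 and 4140 CPM) were called higher in fibroblasts. Fth1 also stood at 2585, 6745, 7111 and 6602 CPM in tumor cells and at 4609, 9817, 9374 and 9908 CPM in macrophages (edgeR adjusted p = 0.029 in macrophages). Of the 27 called genes, 18 had a mean level in fibroblasts of at least 50% of that in every other class. In the same test, endothelial cells had 64 of 4463 genes called (1.43%), macrophages 122 of 3993 (3.06%) and tumor cells 0 of 4757 (0.0%, with 653 or 13.7% at an unadjusted p under 0.05).

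Whether the response differed between classes was tested with an interaction term and the library as a block. Against endothelial cells, 18 of 3908 genes differed (0.461%), 2 with a higher (0.0512%) and 16 with a lower response (0.409%) in fibroblasts. Acta2 fell in fibroblasts and stood at 66.8, 151, 53.04 and 33.4 CPM in endothelial cells, a difference of -6.08 in log2 change (edgeR adjusted p = 4.4e-05). Vcam1, an adhesion molecule for leukocytes, stood at 514 CPM in NT and 203, 95.3 and 136 CPM in RT fibroblasts, but at 225, 421, 311 and 500 CPM in endothelial cells, a difference of -2.80 (edgeR adjusted p = 0.0099). Of the 97 NT UMIs of Acta2, the 2 pericyte-marker barcodes held 57 and 18, and the differences were not refitted without these barcodes. Igfbp4, a carrier of insulin-like growth factors, differed the other way. It stood at 227, 5363, 3522 and 1708 CPM in fibroblasts and at 322, 752, 542 and 489 CPM in endothelial cells, a difference of 2.94 (edgeR adjusted p = 0.0099), while tumor cells, whose Rhox5 RNA was also higher in the RT fibroblast sums, had 4319 CPM of it. The part of tumor RNA in this value was not tested.

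Against tumor cells, 19 of 3930 genes differed (0.483%), 6 with a higher (0.153%) and 13 with a lower response (0.331%) in fibroblasts. Gsn stood at 129, 187, 249 and 195 CPM in tumor cells, and its response was higher in fibroblasts by 2.86 (edgeR adjusted p = 0.0061). Ackr3, an atypical receptor that removes Cxcl12, stood at 90.7, 977, 1226 and 597 CPM in fibroblasts and at 71.3, 61.1, 58.9 and 54.6 CPM in tumor cells, a difference of 3.59 (edgeR adjusted p = 0.027). Its change within fibroblasts had an edgeR adjusted p of 0.051. Without RT1 no gene differed against tumor cells (504 at an unadjusted p under 0.05), and without RT3 1 gene differed against endothelial cells.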

How the data were processed

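The 4 single-cell 3′ libraries (SeekOne microwell kit) were analysed. The deposited tables hold UMI counts per gene and barcode that the authors made from the reads. The submitters' processing notes name STAR 2.5.1b, Subread 1.6.4, featureCounts, Cell Ranger and the build GRCm39, and the study's methods name SeekOne Tools. One table (RT2) lists 18605 genes by symbol and holds no barcode above 11.95% mitochondrial UMIs, so all libraries were used over these 18605 genes. Between 182 and 277 barcode sequences occurred in both libraries of a pair, none as a fibroblast in both. No doublet caller was run, and the rule's limits on Rhox5, Ptprc and C1q UMIs removed part of the mixed barcodes.

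Members and gene lists were chosen with earlier results of these data known. Tumor cells had at least 2 Rhox5 UMIs, macrophages at least 5 C1q UMIs and endothelial cells at least 3 UMIs of Pecam1, Cdh5, Kdr and Plvap, with limits on markers of the other classes. Counts were summed per library and class and tested with edgeR 4.0.16 (TMM, robust quasi-likelihood, R 4.3.3). DESeq2 1.42.0 was an alternative, as were other normalizations, filters and gates. The study's test over single cells was not repeated, since cells of a library are not replicates. RT samples are separate tumors, and NT is 1 pool, so p-values take the spread between RT tumors as that of NT. Named genes were the called ones at least 50% as abundant in fibroblasts as in every other class (at most 12 per direction), filled with large uncalled falls, and for each list the 3 most abundant and the most changed, and 5 per direction for differences of response. Other list members were named as examples after their values were seen. Ratios of pooled RT to NT UMIs carry exact 95% counting intervals, and shares were compared after thinning barcodes to 1500 UMIs. The intervals of the ratios leave out the spread between barcodes and between tumors, so they are narrower than the full uncertainty. On simulated counts the RT test recovered 28.7% of genes changed 4-fold and 63.6% of those changed 8-fold, with 9.09% and 3.74% of the calls false. The simulation drew NT and RT sums with the same dispersion and without barcodes. It therefore cannot give the share of false calls in the real comparison, where NT UMIs came from few barcodes.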

Additional observations from a re-analysis of the deposited data

Results flagged for a closer look

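These results were singled out because the change between RT and NT in fibroblasts differed, by the interaction test in edgeR, from that in another class of the same libraries. Against endothelial cells the adjusted p was 4.369e-05 for Acta2, 0.0007436 for Col8a1, 0.00988 for Rasl11a, Vcam1 and Igfbp4, 0.01833 for Tagln and 0.03945 for Dnajb9. The response was lower in fibroblasts for Acta2, Col8a1, Rasl11a, Vcam1 and Tagln, and higher for Dnajb9 and Igfbp4. Most NT UMIs of Acta2 and Tagln came from the pericyte-marker barcodes, and the differences were not refitted without these barcodes. Col8a1 stood at 484, 11.9, 20.6 and 72.8 CPM in fibroblasts of NT, RT1, RT2 and RT3 and at 6.07, 18.0, 41.7 and 77.8 CPM in endothelial cells, so the order of the groups was opposite. Dnajb9 had no UMI in NT fibroblasts and stood at 170, 176, 197 and 156 CPM in endothelial cells. With the 26 NT fibroblast barcodes at 0.5% collagen its log2 change in fibroblasts was 1.01 (edgeR adjusted p = 0.46).

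Against tumor cells the edgeR adjusted p was 0.004149 for Timp3, 0.006092 for Gsn, 0.02 for Lox and Ccn2, 0.02098 for Rasl11a, 0.027 for Cxcl12 and Pcolce2, 0.02727 for Ackr3 and 0.03182 for Scara5. The response in fibroblasts was higher for Gsn, Pcolce2, Ackr3 and Scara5 and lower for the others. Pcolce2 and Scara5 had no UMI in NT fibroblasts and passed the filter through their RT levels. The size of their differences is therefore not given, and their direction rests on the 0 in 8 NT barcodes. Timp3, Lox, Ccn2 and Cxcl12 were at most 0.75 CPM in the tumor cells of any library, so their differences compare fibroblasts with a class that hardly held these transcripts. The part of fibroblast RNA in these tumor levels was not tested.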

How the results depend on the processing

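The 8 NT barcodes and the single NT library limit every comparison with RT, and 66127 NT fibroblast UMIs leave genes under 45.4 CPM at or near 0 there. The RT against NT fit called 27 genes, and 192 with no filter, 74 with libraries thinned to the smallest, 53 at 2% collagen, 50 with Rhox5 and C1q at 0, 14 without the deepest NT barcode (an alternative chosen after seeing the data), 8 without the 8% of fibroblast barcodes with the most UMIs in each library, 1 at 0.5% collagen and 0 to 23 when leaving out 1 RT library. With DESeq2 it called 27, of which 16 were shared. The 18 differences against endothelial cells became 29 with RLE scaling, 11 with DESeq2, 53 with no filter, 10 at a mean of 100 CPM, 3 at 0.5% collagen, 10 with Rhox5 and C1q at 0, 11 without these deepest barcodes and 1 to 54 when leaving out 1 RT library. The 19 against tumor cells became 41 with DESeq2, 116 with no filter, 3 at a mean of 100 CPM, 0 at 0.5% collagen (370 at an unadjusted p under 0.05), 6 with Rhox5 and C1q at 0, 11 without the deepest NT barcode, 6 when thinned and 0 to 73 when leaving out 1 RT library. The other alternatives gave counts within 1.5 times, although thinning kept 6 of the 18 differences against endothelial cells among its 20 calls, with 10 higher and 10 lower against 2 and 16, and the cause of the changes was not tested. Of 406 medians of gene lists over all alternatives, 300 moved by less than the spread between RT libraries and 106 by more. The RT mean share exceeded that of NT by 0.603 percentage points (SD of RT 0.199), by 0.499 to 0.698 when leaving out 1 RT library and by 1.25 among barcodes with at most 1 Rhox5 UMI. The number of fibroblasts per endothelial barcode exceeded that of NT by 1.96 (SD 2.19), less than the spread of the RT libraries, and by 0.689 without RT3 (0.689 to 2.60 when leaving out 1 RT library). No paired analysis was possible because NT has 1 library.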
